A study of Mus musculus with 2 samples.

Results

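Of the 9 long noncoding RNA genes considered here, Malat1, Neat1, Miat, Rmst, Sox2ot, Pantr1, Gas5, Snhg11 and Tug1, 8 had a row in the gene tables and all 8 were detected in embryonic mouse forebrain, over a range from 2519 ± 2.79 TPM (transcript share after adjustment for length) for Malat1 to 2.47 ± 0.156 TPM for Neat1 (mean ± SD, n = 2, as for all such values here). The genes were chosen by name and found by Ensembl identifier, 7 of them by gene identifier and Rmst through a transcript identifier, among 69691 rows of which 43346 carried Ensembl identifiers and 5695 are annotated long noncoding genes. No row longer than the size of the extracted RNA could be matched to Sox2ot, which is described only through the rows inside it. Total RNA was sequenced from forebrain of B6NCrl embryos at 10.5 days of development, as 2 libraries of 10 ng of RNA in a single group. Replicate 1 was made from 69 pooled embryos and replicate 2 from 51, with both sexes pooled in each, no treatment and no altered allele, so the values are averages over many embryos and all cell types of the tissue. The tables held 43021202 and 39215064 expected counts in replicates 1 and 2. The design holds no other tissue, stage or genotype, so genes were compared with each other inside each library and the pools with each other. An exact two-sided test by sign flips over 2 libraries cannot reach below p = 0.5, and no p-value is given. "Beyond the spread" means that both libraries lay on the same side and that the mean log2 difference exceeded its SD.

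Long noncoding RNAs are transcripts longer than the small structural RNAs that are not known to encode a protein. Several of these genes act inside the nucleus: Malat1 gathers in nuclear speckles, where splicing factors are stored, and the long form of Neat1 is the scaffold of paraspeckles, bodies that hold RNA-binding proteins. Miat, also called Gomafu, is a nuclear RNA of neural cells with repeats that bind splicing factors, while Rmst, Sox2ot and Pantr1 are transcribed close to, or have been tied to, transcription factors of neural progenitors. Gas5 and Snhg11 carry small nucleolar RNAs (snoRNAs, guides for modification of ribosomal RNA) in their introns, and Tug1 is a widely expressed RNA named for its induction by taurine in the retina.

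The features that define these genes can be read in their sequences, which were taken from GENCODE M21 transcripts on GRCm38 (mm10) unless RefSeq is named. The model that drew most Malat1 counts, Malat1-203, is much shorter than the long transcript, and its only sequence of its own is the junction between its exons. It is shown because the deposited Malat1 level rests on that model, with the last 30 bases of its exon 1 (chr19:5802238-5802267, minus strand) in lower case and the first 30 of its exon 2 (chr19:5801937-5801966) in capitals.
Malat1-203 junction: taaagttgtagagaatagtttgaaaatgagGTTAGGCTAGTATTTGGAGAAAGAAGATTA
The last 90 bases of the long Neat1 transcript (chr19:5824708-5824797, minus strand) show how its end is built without a poly(A) tail. The capitals mark TTTTGCTTTT and AAAAAGCAAAA, a U-rich element and the A-rich tract at the very end, which in this RNA and in Malat1 are known to fold together into a triple helix that slows decay. Both words were present in the last 90 bases of Neat1-201 and of no other among 29881 long noncoding transcripts of 200 bases or more, and TTTTGCTTTT was found in 0.0469% and AAAAAGCAAAA in 0.0268% of them.
Neat1-201 last 90 bases: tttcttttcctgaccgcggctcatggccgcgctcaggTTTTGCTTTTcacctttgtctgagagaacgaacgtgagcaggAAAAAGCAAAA
The annotated small RNA Gm27702 (chr19:5824652-5824707, minus strand, 56 bases) starts at the next base. A tRNA-like RNA at this place is released when RNase P cuts the Neat1 precursor, and the capitals mark GTTCGA, letters of the loop that tRNAs share.
Gm27702: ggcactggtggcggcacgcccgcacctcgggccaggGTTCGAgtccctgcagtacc
Miat is shown by a stretch of Miat-201 (chr5:112217313-112217455, minus strand, bases 4533 to 4675 of the transcript) with each ACTAAC in capitals, the core of the repeat that resembles an intron branch point and binds the splicing factor SF1.
Miat-201 repeat stretch: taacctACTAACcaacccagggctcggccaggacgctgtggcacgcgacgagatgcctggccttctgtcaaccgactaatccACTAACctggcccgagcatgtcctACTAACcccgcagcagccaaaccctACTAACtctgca
Miat-201 held ACTAAC 11 times on the transcribed strand, and 6 of these were TACTAAC, all between bases 4539 and 6454. Among 9539 long noncoding transcripts of 1000 bases or more, 24.0% held ACTAAC at least once and 0.0419% held it 11 times or more. Miat-201 had 1.26 copies per 1000 bases, and 0.451% of those transcripts had at least that density. Neat1-201 held 4 copies and Malat1-201 held 0.

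The Gas5 start and its snoRNAs are shown because Gas5 is known as a terminal oligopyrimidine RNA and a snoRNA host. RefSeq (GRCm38.p6) gives a Gas5 start at which the RNA begins with 5 pyrimidines, in capitals below (chr1:161035116-161035215, plus strand, the start being base 51). A C followed by 4 or more C or T at the first base of the RNA, searched on the transcribed strand, is the mark of that class, to which the mRNAs of ribosomal proteins belong.
Gas5 start: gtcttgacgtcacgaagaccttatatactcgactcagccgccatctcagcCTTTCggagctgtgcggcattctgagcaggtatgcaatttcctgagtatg
That pattern stood at 2.51% of all 32851 RefSeq starts and at 2 of 16 starts in the list of other snoRNA hosts (12.5%). It stood at 14 of 91 starts of rows with names that begin like those of ribosomal protein genes (15.4%). Those rows were picked by name and take in other genes with like names, so 15.4% is not the share among ribosomal protein genes alone. Among the 5 genes with RefSeq entries it was also found at Miat, with a run of 6, and not at Malat1, Tug1, Snhg11 or the other Gas5 start. GENCODE places 10 snoRNA genes of 60 to 84 bases inside Gas5, and 3 are shown with the first TGATGA, the letters of box C, and the last CTGA, the letters of box D, in capitals, other copies staying in lower case and Snord78 holding no TGATGA, since these boxes bind the proteins that make the snoRNA stable. They lie on the plus strand at chr1:161038082-161038158, chr1:161036984-161037049 and chr1:161037601-161037681.
Snord47: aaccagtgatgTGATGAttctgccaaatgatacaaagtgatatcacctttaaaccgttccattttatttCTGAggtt
Snord78: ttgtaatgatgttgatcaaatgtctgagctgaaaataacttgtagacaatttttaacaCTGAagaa
Snord80: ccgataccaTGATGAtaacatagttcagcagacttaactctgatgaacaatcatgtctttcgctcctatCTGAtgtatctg
TGATGA was found in 8 of the 10 snoRNA models inside Gas5, and CTGA in 10 of the 10. The 10 snoRNA genes include Snord80 as overlapping models of 81 and 77 bases, so they are not all separate snoRNAs. Among all 1507 annotated snoRNA transcripts, of any class, the shares were 26.1% and 79.5%. Rmst spans the miRNAs miR-135a-2 and miR-1251, neither of which overlaps an annotated Rmst exon. Their mature forms from RefSeq (GRCm38.p6) are given with the seed, bases 2 to 8, in capitals, because the libraries were made from RNA over 200 bases and so give values for the host and not for these products. They are encoded on the minus strand of chromosome 10, at chr10:92072141-92072163 and chr10:92137190-92137210, and their seeds differ.
mmu-miR-135a-5p: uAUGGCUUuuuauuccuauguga
mmu-miR-1251-5p: aCUCUAGCugccaaaggcgcu

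Detection was set at 1 TPM in both libraries. All 8 genes with a row passed it, against 12.7% of annotated long noncoding genes, 32.4% of all Ensembl rows and 57.3% of protein-coding genes. With reads set over the longest transcript, as described below for the order of levels, 7 of the 8 passed and Neat1, at 0.647, did not. The median of the 8 levels was 113.3 ± 0.467 TPM, against 2.86 ± 0.028 TPM for the 723 detected long noncoding genes and 17.1 ± 0.141 TPM for all detected genes. Malat1 had 2521 TPM in replicate 1 and 2517 TPM in replicate 2. Gas5 had 575.6 and 630.1 TPM, Pantr1 176.1 and 161.2 TPM, and Tug1 143.3 and 156.3 TPM in replicates 1 and 2. Rmst had 84.0 and 69.7 TPM, Miat 29.5 and 29.3 TPM, Snhg11 13.6 and 15.1 TPM, and Neat1 2.58 and 2.36 TPM. The libraries of neighbouring genes did not overlap in this order. Of the 7 neighbouring pairs, 6 differed beyond the spread, and Pantr1 over Tug1 did not, since its mean log2 difference of 0.17 was below its SD of 0.18. Malat1 ranked 1 among the detected long noncoding genes, ahead of Gm26917 (2114 ± 144 TPM), Gm42418 (1633 ± 31.3 TPM) and Cct6a (614.7 ± 20.1 TPM), which the annotation files as noncoding, and Gas5 ranked 5. Pantr1 ranked 10, Tug1 11, Rmst 20, Miat 51 and Neat1 417, and Snhg11, which the annotation files as protein-coding, would have been 96. With reads set over the longest transcript Malat1 ranked 6 and Neat1 713, and by counts scaled to the library total Malat1 ranked 3, Miat 12 and Neat1 135. Set against the median detected long noncoding gene, 7 of the 8 lay above it, and Neat1, at -0.21 ± 0.074 on the log2 scale, below it, but Neat1 stood above it by 2.19 when long noncoding genes with 1 count or more in each library were the background and by 1.71 without division by length.

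**Figure D1:**
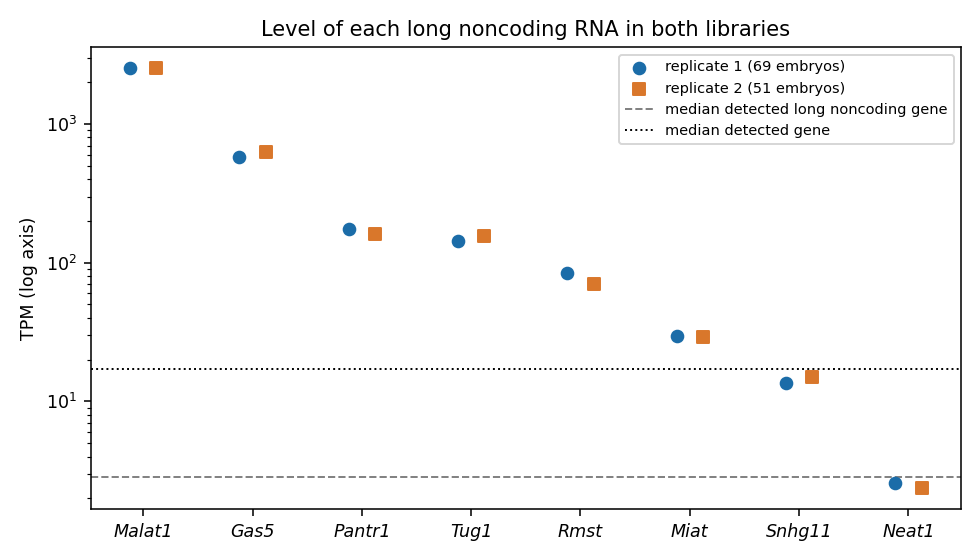
TPM (log axis) of each gene in replicate 1 (circles) and replicate 2 (squares), with dashed and dotted lines at the median detected long noncoding gene (2.86 TPM) and the median detected gene (17.1 TPM). The libraries lie close together at every gene, Malat1 is highest at 2519 TPM and Neat1 is the only gene under the dashed line, on this scale and against this background.

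The order depended on the length over which reads were counted. TPM sums the transcripts of a gene, so reads placed on a short model give a high level. When all reads of a gene were set over its longest transcript on the same scale, Gas5 led at 166.4 ± 8.30, followed by Malat1 at 154.1 ± 0.119 and Tug1 at 115.1 ± 7.26. Pantr1 then lay at 40.9 ± 1.81, Rmst at 34.9 ± 6.45, Miat at 17.7 ± 1.55, Snhg11 at 10.1 ± 1.03 and Neat1 at 0.647 ± 0.0233, and all 7 neighbouring pairs differed beyond the spread. The deposited TPM exceeded this level 16.4-fold for Malat1, 4.13-fold for Pantr1, 3.82-fold for Neat1, 3.62-fold for Gas5 and 2.20-fold for Rmst, and less than 2-fold for Miat, Snhg11 and Tug1. An excess over 2-fold was found in 14.4% of genes with several transcripts and in 21.4% of long noncoding ones. Counts scaled to the library total (CPM), not divided by length, gave another order, with Malat1 at 701.4, Tug1 at 502.9, Gas5 at 270.2, Miat at 106.4, Rmst at 64.5, Pantr1 at 53.7, Snhg11 at 38.3 and Neat1 at 8.84. Neat1 came last under all 3 measures.

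**Figure D2:**
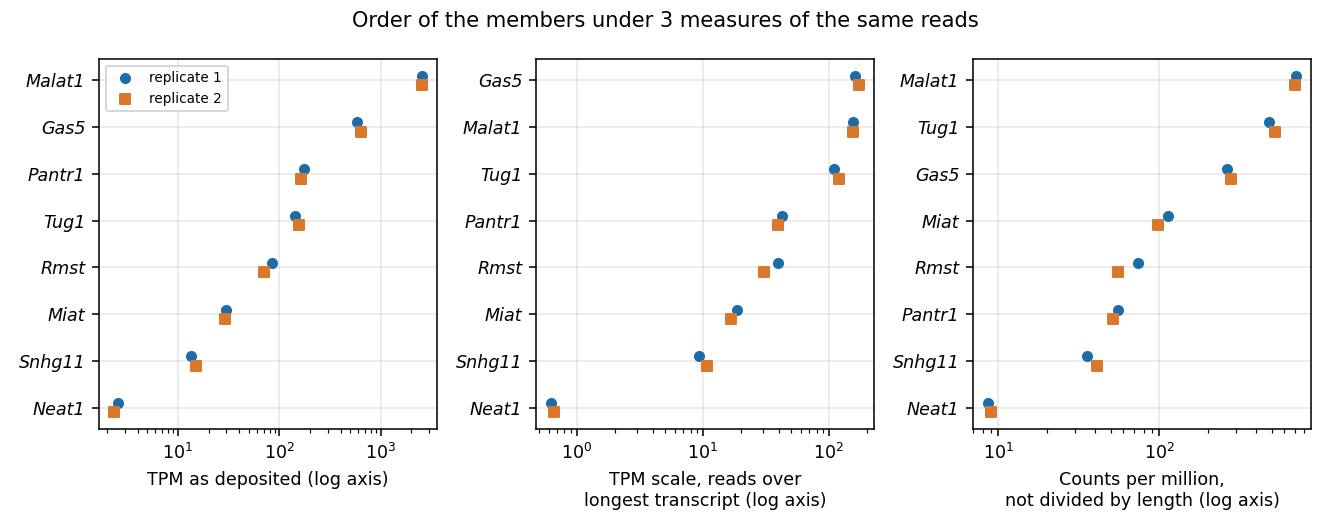
The 8 genes ordered from high to low by TPM as deposited, by reads over the longest transcript on the TPM scale, and by CPM, each on a log axis, with replicate 1 as circles and replicate 2 as squares. Malat1 is first at 2519 TPM but follows Gas5 over the longest transcript (154.1 against 166.4), and Neat1 is last in every panel.

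Malat1 (ENSMUSG00000092341, chr19:5795690-5802672, minus strand) had 29335 and 26476 expected counts in replicates 1 and 2. Nearly all of its TPM, 99.5% in replicate 1 and 99.4% in replicate 2, was placed on Malat1-203, a model of 485 bases with 26788 and 24095 counts. The full-length Malat1-201, a single exon of 6983 bases, received 2547 and 2360 counts, or 13.4 and 13.7 TPM. The exons of Malat1-203 are 434 and 51 bases long and match bases 2 to 435 and 707 to 757 of Malat1-201, so its junction is the only sequence of its own and other reads there could come from either. Per base of effective length, Malat1-203 drew 187.6-fold and 182.1-fold the counts of Malat1-201. The same stretch is overlapped on the opposite strand by Gm37376, an unspliced model of 453 bases that shares 182 bases with the Malat1-203 exons. Gm37376 had 9123 and 9025 counts, or 931.3 and 1022 TPM. Whether counting used the strand is not stated, so reads of Malat1 and of Gm37376 cannot be told apart, and Gm37376 held 23.7% and 25.4% of the counts of both together. The authors' interval bounds for the Malat1 level, 2440 to 2500 TPM and 2429 to 2492 TPM, ended below the deposited TPM of 2521 and 2517. This was not particular to Malat1. The bounds for Tug1, 138.3 to 142.6 TPM and 150.65 to 155.3 TPM, also ended below its deposited 143.3 and 156.3 TPM. Neat1, which lies next to Malat1 on the chromosome, stood at -9.94 ± 0.086 relative to Malat1 on the log2 scale of TPM. Over the longest transcripts the value was -7.69, and in CPM it was -6.29. Against Srsf1, which encodes a splicing factor of nuclear speckles, Malat1 was higher by 2.85 ± 0.068 on that scale, but over the longest transcripts the difference was -0.23.

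**Figure D3:**
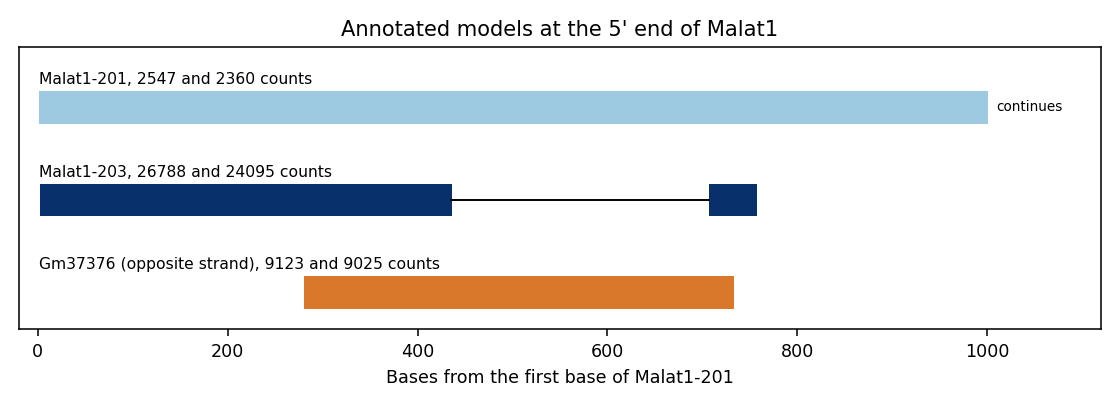
Annotated models over the first 1000 bases of Malat1, in bases from the start of Malat1-201, with the expected counts of replicates 1 and 2 above each. Malat1-203 (485 bases, dark) drew 26788 and 24095 counts, far more than the full-length Malat1-201 (pale), and overlaps Gm37376 on the opposite strand (orange).

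All 16 speckle and splicing partner genes were detected, against 57.3% of all protein-coding genes. The list was chosen with earlier results of these data known, so full detection is not a result about its genes. The highest were Hnrnpa2b1 at 1258 ± 61.9 TPM, Srsf3 at 1115 ± 1.63 TPM and Srsf2 at 773.0 ± 13.0 TPM. Hnrnpa2b1 encodes a packaging protein of nuclear RNA, and Srsf2 and Srsf3 encode serine- and arginine-rich splicing factors. Celf3, whose protein binds the Miat repeats in mouse cells, was the lowest of these at 8.02 TPM in replicate 1 and 5.52 TPM in replicate 2. All 11 genes of RNase P and RNase Z, the enzymes that cut the ends of Malat1 and Neat1, were also detected, with Pop4 at 120.1 ± 2.82 TPM, Pop5 at 100.3 ± 1.34 TPM and Rpp30 at 91.6 ± 2.31 TPM, all protein subunits of RNase P.

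Neat1 (ENSMUSG00000092274, chr19:5824708-5845478, minus strand) was close to the limit of detection, with 361 and 342 counts. Its authors' intervals were 2.20 to 3.02 TPM in replicate 1 and 1.99 to 2.80 TPM in replicate 2, so they overlapped between the libraries. The short form Neat1-202 (3004 bases) made up 79.3% and 78.4% of the TPM, on 165 and 134 counts. The paraspeckle-forming Neat1-201 (20771 bases) made up 12.9% and 16.9%, at 0.33 and 0.40 TPM, but drew more counts, 190.9 and 205.5. Both forms share the 5' end, so reads there could come from either. Gm27702, the tRNA-like model at the end, is under 100 bases and could receive no count by the way effective length was set, and the row was listed at 0.

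The genes of paraspeckle proteins stood above Neat1 in TPM, all but Zc3h6. All 18 paraspeckle protein genes were detected, against 57.3% of all protein-coding genes. Their levels ran from Hnrnpk (2110 ± 128 TPM), Hnrnpa1 (1626 ± 47.9 TPM) and Ewsr1 (793.7 ± 47.0 TPM), which encode RNA-binding proteins, down to Zc3h6 at 1.52 ± 0.071 TPM. Nono, a core paraspeckle protein needed to stabilise Neat1, had 541.8 and 568.7 TPM in replicates 1 and 2. Relative to Nono, Neat1 stood at -7.76 ± 0.14 on the log2 scale of TPM, 216-fold lower and beyond the spread, and at -9.45 over the longest transcripts. The long Neat1 form ends without a poly(A) tail, and how the libraries were primed is not stated. Any effect of this on the levels of Neat1, or of Malat1, relative to other genes was not tested. RNA levels of whole tissue do not show whether any cell formed paraspeckles.

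Miat (ENSMUSG00000097767, chr5:112213228-112229395, minus strand) had 4725 and 3765 counts. The repeat-bearing Miat-201 (8758 bases) held 92.7% and 89.1% of the counts, but 62.0% and 53.0% of the TPM. The rest of the TPM lay largely in Miat-204, a model of 284 bases, at 30.03% and 36.12% on 45 and 49 counts. Miat exceeded Celf3 by 2.13 ± 0.37 on the log2 scale of TPM, 4.36-fold, in the same direction in both libraries (1.87 and 2.39). Over the longest transcripts the difference was 1.40, and in CPM it was 3.18. Sf1, whose protein reads the branch point word, had 170.8 ± 1.40 TPM, and Qk, an RNA-binding protein gene with a similar target word, 36.4 ± 2.79 TPM. The repeat stretch printed above falls within the short model Gm27627 by all but a few bases, and that row was listed at 0 counts.

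Rmst was read from the row ENSMUSG00000097348, since its transcript ENSMUST00000182623 carries the Rmst name in GENCODE M21 and all 13 transcript lengths of the row occur among the 14 Rmst transcripts there. M21 places Rmst at chr10:92071037-92165170 on the minus strand. It had 3050 and 2115 counts. Its leading transcript by TPM, ENSMUST00000182361 with 309 bases, made up 27.4% and 36.9% on 134 and 135 counts, while ENSMUST00000181213, with 2698 bases, held 53.4% and 50.8% of the counts and 27.0% and 23.8% of the TPM. Gm26700, on the opposite strand inside Rmst, had 498 and 371 counts, and Mir135a-2 and Mir1251 were listed at 0. In human neural stem cells RMST binds SOX2, the transcription factor that maintains neural progenitors. Sox2 had 21.1 and 21.3 TPM in replicates 1 and 2, and Rmst lay above it by 1.85 ± 0.20 on the log2 scale, 3.60-fold, and by 0.71 over the longest transcripts.

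Sox2ot surrounds Sox2 on the same strand of chromosome 3 and its longer transcripts are not analysed here, because none of their identifiers matched a row over 200 bases. Among the genes annotated inside it on its strand that had a row, Sox2 had the most counts, with 1377 and 1252, and the others were short models. Rows without a match in M21, which could include Sox2ot under another identifier, are not covered. RF01953 had 66 and 58 counts (13.8 and 13.4 TPM) and Gm27403 had 22 and 22 counts (6.91 and 7.67 TPM) in replicates 1 and 2. On the opposite strand Gm20515 had 92 and 68 counts, or 0.70 and 0.58 TPM. These rows give no level for Sox2ot itself.

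Pantr1 (ENSMUSG00000060424, chr1:42590782-42694842, minus strand) lies beside Pou3f3, a POU domain factor of cortical progenitors and upper-layer neurons, and had 2317 and 1962 counts. Its TPM exceeded that of Pou3f3 by 3.83 ± 0.024 on the log2 scale, 14.2-fold, and by 1.78 over the longest transcripts. Without division by length the difference was -0.086, so the genes drew similar numbers of reads. Pantr2, the noncoding gene on the other side of Pou3f3, had 15.4 and 14.0 TPM and stood at -3.51 ± 0.010 relative to Pantr1 on the log2 scale. Over the longest transcripts that value was -1.58, and in CPM it was -2.75. Pantr1 was the only gene of the 8 whose leading transcript changed between the libraries: Pantr1-212 made up 39.6% in replicate 1 and 23.5% in replicate 2, and Pantr1-209 made up 26.8% in replicate 1 and 42.7% in replicate 2. Pantr1-206 had 68 counts in replicate 1 and 319 in replicate 2. The lengths of these models are 499, 615 and 546 bases, and estimates that split shared exons among 12 models can trade reads between them.

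Gas5 (ENSMUSG00000053332, chr1:161034422-161038539, plus strand) had 10912 and 10557 counts spread over 25 models, 20 of them above 0 in both libraries. The leading model, the spliced Gas5-224 of 502 bases, held 21.99% and 21.42% of the TPM. Spliced models together made up 40.0% and 41.3%, and models annotated with a retained intron 59.95% and 58.75%. The 16 models whose exons contain at least 1 whole snoRNA held 44.4% and 43.9% of the TPM, 44.1 ± 0.332%, and 61.8 ± 1.09% of the counts. By counts the leading model was Gas5-218 (2556 bases, 6 annotated snoRNA models in its exons, overlapping ones counted separately), with 24.0% and 22.5%. Rows for the snoRNAs inside Gas5 were all under 100 bases and listed at 0, so reads over them could be counted only in the host models. Spliced Gas5 is known to be broken down by nonsense-mediated decay when ribosomes read it. All 10 decay genes were detected, against 57.3% of all protein-coding genes, among them Smg5 at 71.5 ± 2.88 TPM and Upf3a at 41.9 ± 0.078 TPM. Gas5 exceeded Upf1, the decay helicase, by 5.55 ± 0.037 on the log2 scale of TPM, 46.9-fold. Over the longest transcripts that difference was 3.70, and in CPM it was 2.82. The 4 genes of proteins that bind box C/D snoRNAs were detected too, with Nop56 at 428.6 ± 7.81 TPM, Snu13 at 334.8 ± 14.2 TPM, Nop58 at 307.4 ± 8.87 TPM and Fbl, the methylating enzyme, at 153.9 ± 1.73 TPM.

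Snhg11 (ENSMUSG00000044349, chr2:158375638-158386145, plus strand) had 1487 and 1551 counts, and its TPM was 41.8-fold below that of Gas5, a log2 difference of 5.38 ± 0.016 for Gas5 over Snhg11. Over the longest transcripts that difference was 4.04, and in CPM it was 2.82. Its longest model, Snhg11-201 with 5864 bases, held 57.9% and 60.4% of the TPM and 84.3% and 84.5% of the counts. Models annotated as targets of nonsense-mediated decay held 32.0% and 31.5% of the TPM. The snoRNA models inside it, Gm25187 and Gm25129, are 133 bases long and held at most 0.08 counts. Their effective length allowed counts, but they are shorter than the 200 bases of the extracted RNA, so these counts give no level for the snoRNAs. Of the 18 further snoRNA host genes listed, 12 had a row and all 12 were detected, against 12.7% of annotated long noncoding genes. The highest of these hosts were Snhg5 at 116.8 ± 5.40 TPM, Snhg6 at 104.1 ± 3.87 TPM and Snhg20 at 85.9 ± 1.45 TPM. Gas5 stood above the highest of them in both libraries.

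Tug1 (ENSMUSG00000056579, chr11:3639785-3649673, minus strand) had 20112 and 19826 counts, the next most after Malat1, and its level was the least affected by length, 1.30-fold above that over its longest transcript. Tug1-203 (5112 bases) held 57.5% and 54.8% of the TPM, Tug1-202 (4720 bases) 24.7% and 26.3% and Tug1-201 (6709 bases) 15.3% and 16.5%, in the same order in both libraries. The start of Tug1 overlaps Morc2a, a gene for a chromatin-silencing ATPase on the opposite strand, which had 40.4 and 41.2 TPM. Tug1 lay above Morc2a by 1.87 ± 0.069 on the log2 scale, 3.66-fold, and by 1.85 over the longest transcripts. Gm27640, a model of 147 bases inside Tug1, had 77 and 83 counts.

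In 7 of the 8 genes the same transcript led by share of TPM in both libraries, against 91.7% of genes with several transcripts and 88.1% of long noncoding ones. By expected counts it was also 7 of 8. The leading model by TPM was not the one with most counts in Neat1, Rmst and Gas5, where short models carry more TPM per read.

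**Figure D4:**
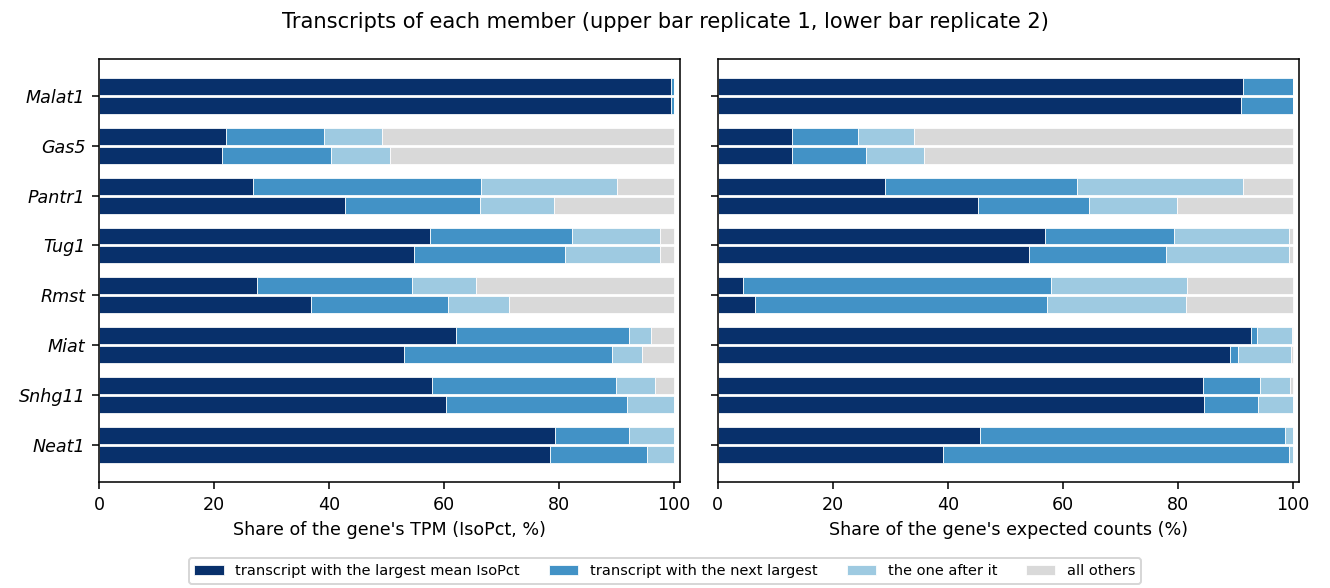
Share of each gene's TPM (left) and of its expected counts (right) in the 3 transcripts with the largest mean share of TPM and in all others, with replicate 1 above replicate 2. The same colour is the same transcript in both panels: in Rmst the darkest transcript holds 27.4% and 36.9% of the TPM but 4.39% and 6.37% of the counts, and in Pantr1 the shares differ between the libraries.

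Between the pools, none of the 8 genes passed 2-fold, against 0.585% of the 13842 genes that averaged at least 50 counts and 0.344% of the 581 long noncoding ones. None passed 1.5-fold either, where the share of all genes was 2.93%. Ratios of scaled counts, replicate 1 over replicate 2, are given with 95% exact binomial intervals, which cover counting error only. Rmst was highest at 1.31 (1.24 to 1.39), followed by Miat at 1.14 (1.09 to 1.19) and Pantr1 at 1.07 (1.01 to 1.14). Malat1 at 1.01 (0.991 to 1.03) and Neat1 at 0.959 (0.826 to 1.12) had intervals that include 1. Gas5 at 0.940 (0.916 to 0.966), Tug1 at 0.923 (0.905 to 0.941) and Snhg11 at 0.872 (0.812 to 0.937) were lower in replicate 1. All but Rmst, at 1.312, lay between the 5th and the 95th percentile of all genes, 0.828 and 1.306. The median size of the log2 ratio was 0.11 for the 8 genes, 0.084 for all genes tested and 0.16 for long noncoding genes tested. Scaled to the spike-ins the median of all genes moved to -0.17 and Malat1 and Pantr1 lay below 1, at 0.898 and 0.957, and by deposited TPM Neat1 lay above 1, at 1.09.

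**Figure D5:**
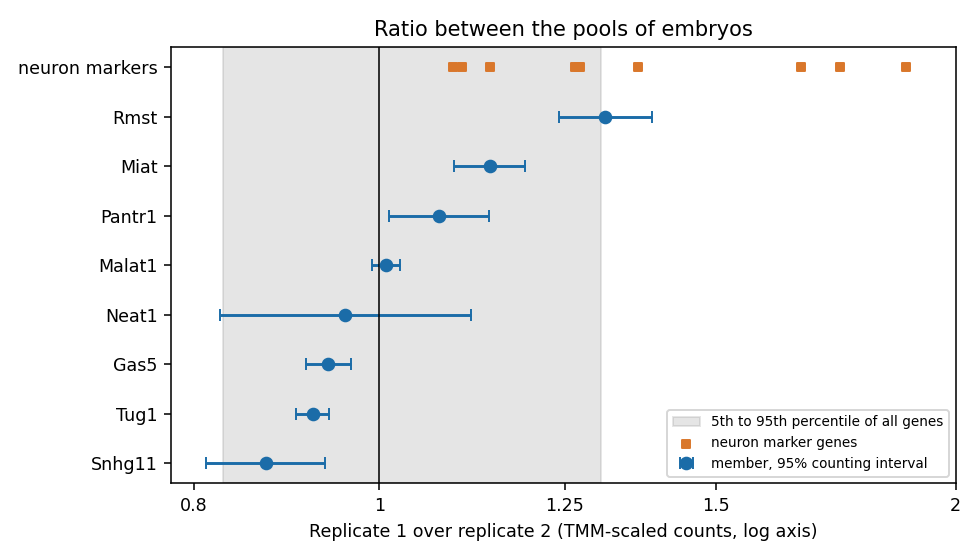
Replicate 1 over replicate 2 in TMM-scaled counts (log axis) for each gene, with 95% counting intervals, beside 10 neuron marker genes (squares) and the range from the 5th to the 95th percentile of the same 13842 genes (grey). Rmst, at 1.31, is the highest of the 8 genes, and all the neuron markers lie above 1.

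The pools also differed in some markers of cell types. Of 10 neuron markers, 10 were higher in replicate 1, against 49.3% of all genes, with summed levels of 456.9 TPM in replicate 1 and 356.5 TPM in replicate 2, and 6 of 6 erythroid markers were higher too, with sums of 17376 TPM and 12868 TPM. Progenitor markers summed to 1532 TPM and 1439 TPM, with 6 of 10 higher in replicate 1, and surface epithelium markers to 123.2 and 115.0 TPM. The medians of the progenitor markers were close, at 69.2 TPM in replicate 1 and 68.5 TPM in replicate 2. The largest progenitor ratio was 1.64 for Fabp7, with 194.2 and 119.8 TPM. Mesenchyme, endothelium and macrophage markers summed to 443.5, 100.6 and 41.7 TPM in replicate 1 and to 441.2, 102.6 and 40.5 TPM in replicate 2. Glial markers summed to 10.0 and 10.3 TPM, with 4 of 6 under 1 TPM in both, among them Gfap, and none of the 6 hindbrain and spinal cord markers reached 1 TPM. The part of these markers in the ratios of Rmst and Miat was not tested. In whole tissue, fewer cells of a type and less RNA per cell cannot be told apart. Celf3, the Miat partner, had a ratio of 1.47. The neural miRNA host genes differed among themselves, with ratios of 1.32 for Mir9-3hg, 1.39 for Mir124a-1hg, 1.03 for Mir124-2hg and 1.10 for Mir99ahg.

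Among 24 other neural long noncoding RNA genes, 21 had a row and 16 were detected, against 12.7% of annotated long noncoding genes. Meg3, an imprinted RNA of the Dlk1 region, led at 248.6 ± 1.47 TPM, above Pantr1 and Tug1, but over the longest transcript it stood at 30.9, below Tug1, Pantr1 and Rmst. Rian, from the same region, had 63.2 ± 5.37 TPM and Mir9-3hg, the host of a neural miRNA, 60.9 ± 11.9 TPM. Zeb2os, Nkx2-2os, Vax2os, Tunar and Paupar were under 1 TPM in both libraries, Nkx2-2os being listed at 0. Of 20 broadly expressed or imprinted long noncoding genes, 18 had a row and 11 were detected, with H19 at 86.0 ± 9.43 TPM, Lockd at 80.9 ± 10.2 TPM and Dleu2 at 37.8 ± 3.62 TPM. Across all 8 lists, 98 of the 110 genes with a row were detected, against 32.4% of all Ensembl rows. Of the 12 gene pairs compared within a library, 10 had rows for both genes and all 10 differed beyond the spread. No share over other pairs of genes was computed, so this count is not a result about these pairs. The direction of Pantr1 over Pou3f3 and of Malat1 over Srsf1 changed with the measure of level.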

How the data were processed

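Total RNA over 200 bases was extracted with mirVana and spike-ins were added, per the labels' protocols; priming and strand use are not stated. The deposited notes give mm10 and annotation M4, and no header or label names the aligner or quantification tool. The authors deposited expected counts (estimated reads, not normalized), TPM with a posterior mean TPM, FPKM and, per the file headers, each transcript's percent of its gene (IsoPct). The authors' interval bounds of TPM were used as deposited. Effective length was length minus 99 bases, so rows under 100 bases received no count and short models get a high TPM per read.

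Symbols, coordinates and biotypes came from GENCODE M21 on GRCm38, and 42463 of 43346 Ensembl rows had a symbol. Counts were rounded for edgeR 4.0.16 (TMM) and unrounded otherwise; DESeq2 gave alternative size factors. Ratios used counts plus 0.5 over TMM-scaled libraries, at a mean count of 50 or more. Log2 levels used TPM plus 0.1. On simulated libraries of 13851 genes with a small set spread, 200 of 200 genes changed 4-fold passed 2-fold, as did 4 of 13651 unchanged genes. This checks only that the ratio step works. It does not measure error in these data, where 0.585% of genes passed 2-fold between the pools. Python 3.11.15 with pandas 2.3.3 and scipy 1.17.1 was used for the rest. The replicates are separate pools of embryos, and p-values were not computed.

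The members, the 8 lists, the marker lists and the 12 gene pairs were chosen with earlier results of these data known. The genes named are all members, the 3 highest of each list and its few undetected genes, the genes of the pairs, overlapping and neighbouring genes, and the 5 highest long noncoding genes; Sf1, Qk, Zc3h6 and the marker and miRNA host genes named beside the ratios were added after their values were seen. Of the genes that the rule picks out, 1 is not reported here.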

Additional observations from a re-analysis of the deposited data

How the results depend on the processing

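Of 49 recomputed summary values, 45 stayed within 1.5 times the reported count or within 1 SD of the reported median, but not all were equal. The 8 detected members were 7 at 10 TPM, over the longest transcript and without Rmst, the 6 neighbouring pairs were 7 by posterior mean TPM and over the longest transcript, and the 7 members above the median were 8 against genes with 1 count or more and in CPM. The median level of the 8 genes, 113.3 TPM, was 111.8 by posterior mean TPM, 124.8 over Ensembl rows without mitochondrial genes, 37.9 with reads over the longest transcript, and 149.8 without Rmst. Leaving out either library gave 113.0 to 113.7. Of 140 recomputed single values, 84 stayed the same, 52 moved and 4 changed sign. Staying the same meant the same side of 1 for ratios between the pools and within 1 SD for the others. Among those that moved, the ratios of Malat1, Pantr1 and Neat1 between the pools, all near 1, changed side as given above. The rest were levels over the median long noncoding gene and pair ratios, such as Gas5 over Upf1 at 2.82 in CPM instead of 5.55. The 4 that changed sign were these: Neat1 stood above the median long noncoding gene by 2.19 when all such genes with 1 count or more in each library were the background and by 1.71 in CPM, Pantr1 over Pou3f3 was -0.086 in CPM, and Malat1 over Srsf1 was -0.23 over the longest transcript. The last setting and the one without Rmst were chosen after seeing the data. Leaving out a library gave 8 and 8 detected members, 98 to 99 detected list genes, 7 and 7 members above the median and 10 and 10 pairs on the same side. No paired analysis was possible because there is 1 group. Depth limits Neat1 most, with 361 and 342 counts.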
